A study of Mus musculus with 8 samples.

Results

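The genes described here encode 10 subunits of voltage-gated calcium channels: the pore-forming α1 subunits *Cacna1a*, *Cacna1c*, *Cacna1d* and *Cacna1e*, the α2δ subunits *Cacna2d1*, *Cacna2d2*, *Cacna2d3* and *Cacna2d4*, and the β subunits *Cacnb2* and *Cacnb4*. They were chosen by name among the 33696 genes counted in single-nucleus RNA-seq of the mouse optic nerve (ON), and each was followed across marker-defined cell types, along the oligodendrocyte (OL) lineage and between genotypes. A further 23 genes of the channel family and its partners and 16 genes of calcium stores, pumps and exchangers were counted alongside.

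Voltage-gated calcium channels open when the membrane depolarizes and let calcium into the cell. The α1 subunit forms the pore and the voltage sensor and gives the channel its type: *Cacna1a* encodes the P/Q-type pore, *Cacna1c* and *Cacna1d* the L-type pores of Cav1.2 and Cav1.3, and *Cacna1e* the R-type pore. The α2δ subunits are extracellular and raise the amount of channel at the surface, and *Cacna2d1* and *Cacna2d2* encode the subunits bound by gabapentin. The β subunits bind the α1 subunit inside the cell and modulate its trafficking and gating. In the OL lineage, OL precursor cells (OPCs) carry voltage-gated calcium currents that are known to decline as the cells mature.

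All 8 libraries came from female mice at P120 that carried floxed *Piezo2*, with 6 ONs of 3 mice pooled in each library. The 4 control libraries (replicates 1 to 4) were from *Piezo2f/f* mice without Cre, and the 4 libraries labelled cKO (replicates 10 to 13) were from *Olig2-cre;Piezo2f/f* mice, in which Cre is meant to delete *Piezo2*, a mechanically gated cation channel, from the OL lineage. Cre was inserted in the *Olig2* gene, which made these mice heterozygous for *Olig2*, so that the floxed deletion and the lost *Olig2* copy cannot be told apart. *Olig2-cre* is also active in other cells that once expressed *Olig2*, some astrocytes among them. Each library was a pool of mice, so the spread between libraries understates the spread between animals.

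The targeted gene was not lower in the OLs of the libraries labelled cKO. *Piezo2* measured 503, 392, 405 and 490.2 CPM, the gene's UMIs scaled to a common library total, in the OLs of control replicates 1 to 4 and 533, 536, 569.8 and 519.8 CPM in those of the libraries labelled cKO. Relative to control, its log2 fold change was 0.25 (SE 0.11, edgeR adjusted p = 0.539). The count covers the whole gene, so it does not check the deleted exons, but it also does not verify the label. *Olig2* measured 24.1 to 40.8 CPM in control OLs and 43.7 to 51.0 CPM in OLs of the libraries labelled cKO, without overlap. Its log2 fold change was 0.58 (SE 0.14, edgeR unadjusted p = 0.00159, adjusted p = 0.247). Whether transcripts of the *Olig2* copy that carries Cre are counted as *Olig2* was not tested. The *Olig2* count therefore does not check the lost copy.

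The libraries held 39628926 to 56541132 unique molecular identifiers (UMIs), and 37061 nuclei passed the filters. Their median depth per library was 2358 to 3300 UMIs, and 157 of 36904 distinct barcodes (0.425%) occurred in more than 1 library. Nuclei were named from marker genes after clustering without the calcium channel genes. OLs were 7930 control nuclei and 11274 nuclei of the libraries labelled cKO, against 356 and 462 OPCs, while 1276 and 1137 nuclei stayed unnamed. In each of the 10 named types the sum of its own markers exceeded that in any other type, although T cell sums reached 14690 CPM of OL markers, not far under the lowest OL sum of 16730 CPM. Control replicate 3 stood apart because 50.7% of its OLs fell in a cluster led by *Avp*, *Gh* and *Prl*, and pituitary markers reached 1034 CPM in its OL sum, against 27.1 CPM in the lowest control library and between 1.61 and 16.6 CPM where the label was cKO. By the sign of its loadings, the first principal component of the OL sums (33.6% of the variance) set replicates 1, 2, 10 and 12 apart from replicates 3, 4, 11 and 13, which crosses the genotypes.

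The 10 genes are all protein-coding and lie, in GRCm39, on several chromosomes. *Cacna1a* (ENSMUSG00000034656) is at chr8:85065224-85367997 on the plus strand. *Cacna1c* (ENSMUSG00000051331) is at chr6:118564201-119173851 on the minus strand, and *Cacna2d4* (ENSMUSG00000041460) is close by at chr6:119213408-119329368 on the plus strand. *Cacna1d* (ENSMUSG00000015968), at chr14:29761896-30213412, and *Cacna2d3* (ENSMUSG00000021991), at chr14:28626892-29444600, are neighbours on the minus strand. *Cacna1e* (ENSMUSG00000004110) is at chr1:154266477-154760247 on the minus strand. *Cacna2d1* (ENSMUSG00000040118) is at chr5:16139372-16579509 and *Cacna2d2* (ENSMUSG00000010066) at chr9:107276811-107406543, both on the plus strand. *Cacnb2* (ENSMUSG00000057914), at chr2:14607899-14994127 on the plus strand, and *Cacnb4* (ENSMUSG00000017412), at chr2:52318337-52566843 on the minus strand, share a chromosome. Their spans run from 116.0 kb for *Cacna2d4* to 817.7 kb for *Cacna2d3*, which may matter for nuclei because intronic reads are counted. No other counted gene overlaps any of them on the same strand.

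Levels were compared between cell types in the control libraries, as CPM of UMIs summed per library and type. Neurons and OPCs were among the high types for most subunits. OLs had the lowest mean of any type for *Cacna1d* and *Cacnb2*, and the other genes each had their own order. A gene was called different where its Benjamini-Hochberg adjusted p in edgeR, over all genes tested, was under 0.05 and its log2 fold change was over 0.5 in size. Of the 10 genes, 9 passed the filter on low counts in this fit, and *Cacna2d4* did not. All 9 were called higher in neurons than in the mean of the other types, where 23.5% of all genes tested were called higher, and all 9 were called higher in OPCs, where 18.5% were. The neuron nuclei numbered only 233 over the 4 control libraries, and the ON holds axons rather than neuronal cell bodies.

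**Figure D1:**
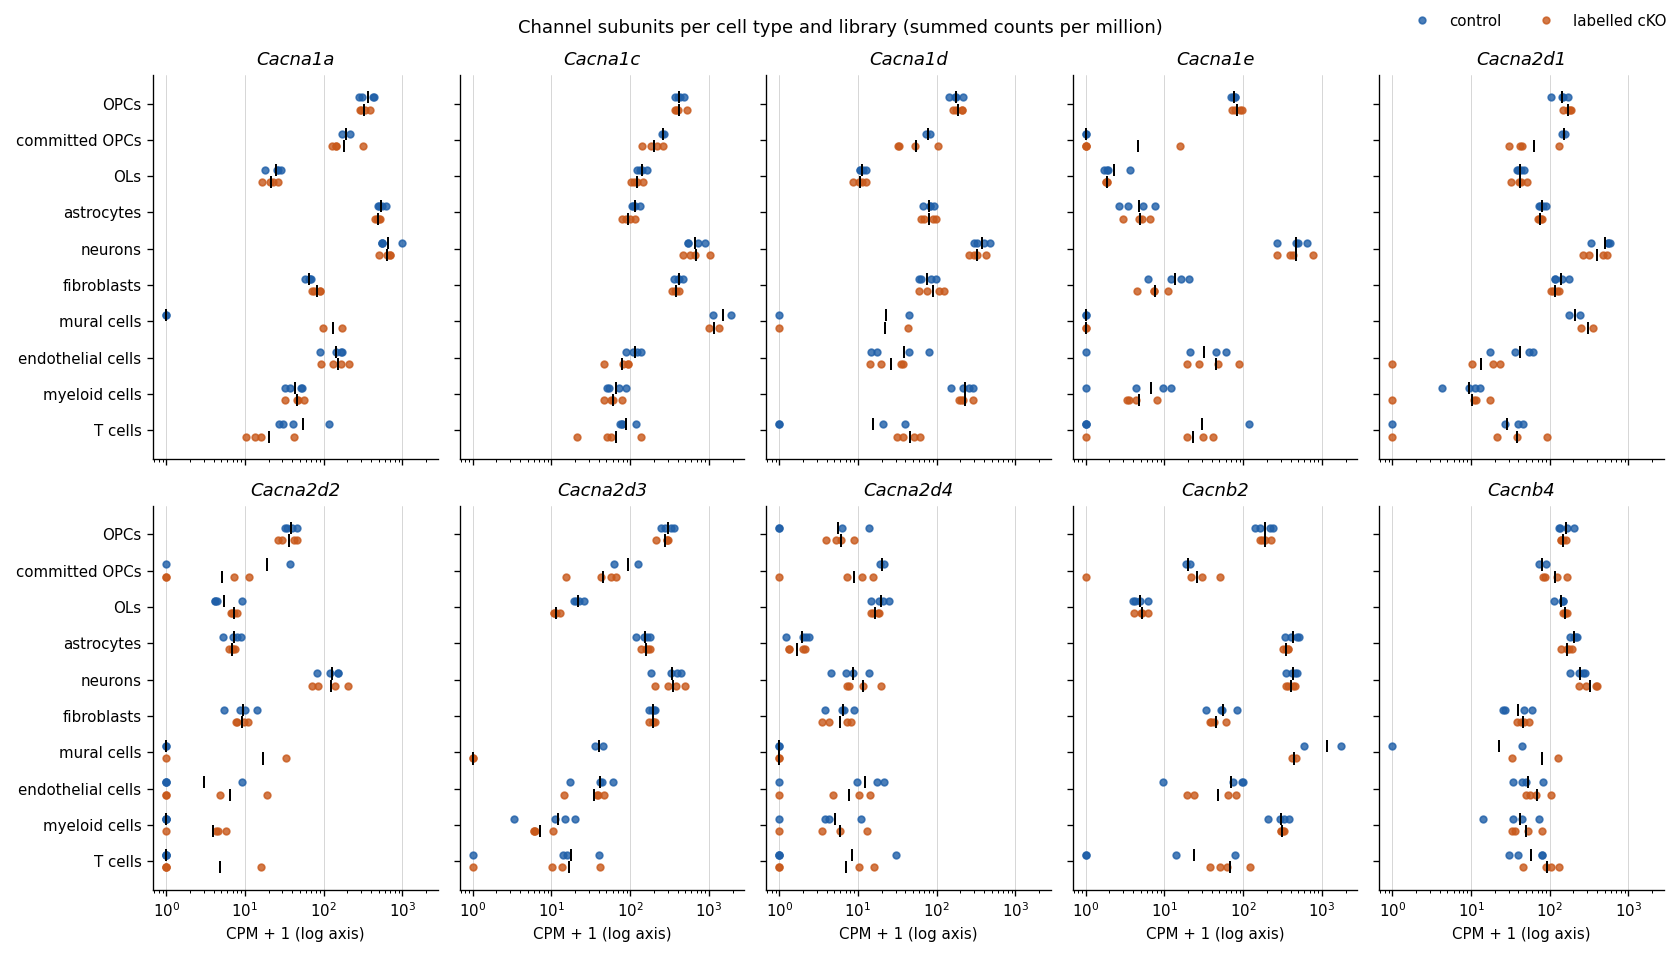
Level of each subunit gene (CPM + 1, log axis) in the summed nuclei of each named cell type, one point per library (blue: control, orange: libraries labelled cKO), black bars for the mean. Neurons and OPCs lie to the right in most panels, and OLs lie left of OPCs except for Cacna2d4 and Cacnb4; mural and committed OPC values rest on 2 control libraries.

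Among the pore subunits, *Cacna1a* was highest in neurons (662 CPM ± 218, SD, n = 4), followed by astrocytes (539.7 ± 59.8) and OPCs (363 ± 81.3). The neuron and astrocyte ranges overlapped, and OPCs lay below both. OLs had 23.7 CPM ± 4.56, which left only the mural cells below them, with 0 UMIs in 22 nuclei of 2 control libraries, a count that allows up to 58.1 CPM. *Cacna1c*, the pore of smooth muscle and neurons, was highest in mural cells (1519 CPM ± 577, n = 2), then neurons (674 ± 163) and, with overlapping ranges, OPCs (422 ± 45.6) and fibroblasts (412 ± 45.6). In OLs it measured 138.9 CPM ± 16.96 and did not differ beyond its spread from astrocytes (114 ± 13.5).

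*Cacna1d* was highest in neurons (374 CPM ± 77.6), and in second place came the myeloid cells (228 ± 59.4), whose range overlapped that of OPCs (176 ± 28.9). OLs were the lowest type for *Cacna1d*, at 10.4 CPM ± 0.98. *Cacna1e* was nearly a neuronal gene in these nuclei: 471 CPM ± 159 in neurons, 74.4 ± 3.99 in OPCs and at most 31.0 CPM in any other type, with 1.28 ± 0.90 in OLs. OPCs were uniform in *Cacna1e*, at 76.6, 69.0, 73.9 and 78.1 CPM in replicates 1 to 4.

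The α2δ subunits differed in where they were found. *Cacna2d1* was highest in neurons (506 CPM ± 115), then in mural cells (209 ± 48.0, n = 2), and it was similar within the spread in committed OPCs (149 ± 8.18, n = 2), OPCs (141 ± 27.3) and fibroblasts (137 ± 28.2). *Cacna2d2* was less widespread, with 125 CPM ± 33.6 in neurons, 37.1 ± 6.23 in OPCs and 0 UMIs in 688 myeloid nuclei, which allows up to 1.69 CPM. *Cacna2d3* was high in neurons (339.5 CPM ± 114) and OPCs (304 ± 52.5), whose ranges overlapped, and it was also present in fibroblasts (192 ± 13.9) and astrocytes (151 ± 25.8).

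*Cacna2d4*, known mainly as the α2δ subunit of photoreceptor synapses, had its highest values in OLs and committed OPCs. It measured 18.8 CPM ± 4.35 in OLs from 442 UMIs and 19.1 CPM in committed OPCs from only 4 UMIs. All other types had 11.3 CPM or less, with 4.56 ± 6.12 CPM in OPCs and 0.95 ± 0.51 CPM in astrocytes. In OLs the 4 control libraries had 23.9, 13.5, 20.002 and 17.6 CPM. Every one of these exceeded every OPC library (highest 12.9 CPM) and every astrocyte library (highest 1.36 CPM), but the OPC sums held only 5 UMIs in all. The highest endothelial library (20.2 CPM) lay within the OL range and the highest T cell library (29.7 CPM) above it, from 10 and 2 UMIs over all control libraries. The filter on low counts kept the gene out of the edgeR fit, and DESeq2, without that filter, gave OLs a log2 fold change of 1.69 over the average of the remaining types (DESeq2 adjusted p = 1.27e-06).

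Of the β subunits, *Cacnb2* was highest in mural cells (1171 CPM ± 821, n = 2), followed by astrocytes (431 ± 76.7), neurons (428 ± 55.6) and myeloid cells (303 ± 75.2), and it was nearly missing from OLs (3.83 ± 1.04). *Cacnb4* differed from it in OLs, at 137.9 CPM ± 16.7, with a range that overlapped that of OPCs (158 ± 33.9), while neurons (238 ± 43.0) and astrocytes (205 ± 17.4) were higher.

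Divided by gene span, *Cacna1a* led in astrocytes (178 CPM per 100 kb), neurons (219) and OPCs (120.0). Whether counts scale with gene span in these data was not tested, so orders of genes on this scale depend on the divisor. In astrocytes *Cacnb2* (112 CPM per 100 kb) and *Cacnb4* (82.4) came next, and the α2δ genes stood at 18.5 or less. OLs had another order on this scale: *Cacnb4* led (55.5 CPM per 100 kb), then *Cacna1c* (22.8) and *Cacna2d4* (16.2), ahead of *Cacna2d1* (9.28), *Cacna1a* (7.82) and *Cacna2d3* (2.55). Without the division, *Cacna2d1* (40.9 CPM), *Cacna1a* (23.7) and *Cacna2d3* (20.8) lay above *Cacna2d4* (18.8) in OLs.

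Tested against the mean of the other types, OLs had 1 gene called higher, *Cacnb4* (26.9% of all genes tested were called higher), and 4 called lower, *Cacna1d*, *Cacna2d1*, *Cacna2d3* and *Cacnb2* (8.04% of all genes). Astrocytes had *Cacna1a*, *Cacna2d3*, *Cacnb2* and *Cacnb4* higher (26.6% of all genes) and *Cacna1c* lower (8.09%). Fibroblasts had *Cacna1c*, *Cacna2d1* and *Cacna2d3* higher (22.7%) and *Cacnb2* and *Cacnb4* lower (7.55%). Myeloid cells had *Cacna1d* and *Cacnb2* higher (19.7%) and *Cacna1c*, *Cacna2d1* and *Cacna2d3* lower (8.67%).

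These calls depend in part on the tool. DESeq2 differed from edgeR in scaling, test and filter on low counts, and their parts were not told apart. With DESeq2, the share of higher calls among all genes called fell from 77.0% to 26.4% in OLs and from 76.7% to 58.8% in astrocytes. It fell from 75.0% to 53.5% in fibroblasts and from 69.4% to 52.3% in myeloid cells. The median of all genes in OLs moved from 0.27 to -0.49 on the log2 scale. All of the calls named above kept their direction and were also made by DESeq2. That tool added *Cacna1a*, *Cacna1c* and *Cacna1e* to the genes lower in OLs. In edgeR the OL tests of *Cacna1a* (SE 542, unadjusted p = 0.998) and *Cacna1e* (SE 500, unadjusted p = 0.997) gave no usable estimate. Both genes had 0 CPM in control mural cells, and the part of such values was not tested. The sign of *Cacna2d2*, which was not called in either fit, turned in OLs and astrocytes. The calls in fibroblasts of *Cacnb2* and *Cacnb4* were lost in 7 and 2 of 13 alternatives and that of *Cacna2d3* in myeloid cells in 3. Those in OLs of *Cacna1d*, *Cacna2d1* and *Cacna2d3* were lost in 2, 4 and 3, and that of *Cacna1c* in astrocytes in 2.

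The low values in OLs were set beside the free RNA. Measured in droplets too poor to hold a nucleus, *Cacna2d3* made up 13.1 to 24.8 CPM of the free RNA, and the OL level exceeded that of the same library's free RNA in 3 of 8 libraries. *Cacnb2* and *Cacna1e* exceeded it in 0 of 8 libraries, *Cacna1a* in 1, *Cacna1d* in 2, *Cacna2d2* in 4 and *Cacna2d1* in 7. *Cacna1c*, *Cacnb4* and *Cacna2d4* exceeded it in all 8, with *Cacna2d4* at 13.5 to 23.9 CPM in OLs against 2.73 to 4.90 CPM in free RNA. How much of the low OL levels of the other genes came from free RNA was not tested.

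The OL lineage was followed from OPCs to OLs in the control libraries. Of the 10 genes, 8 fell from OPCs to OLs, among 20.7% of all genes tested that were called lower. *Cacnb4* was not called, and *Cacna2d4* was below the filter. The list of members was chosen with these levels known, so this count describes them and is no independent evidence of a direction.

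The pore subunits fell unequally. *Cacna1a* measured 438, 280.4, 306 and 428 CPM in OPCs of replicates 1 to 4 and 25.6, 24.6, 17.1 and 27.4 CPM in OLs, with a log2 fold change of -3.84 (SE 0.24, edgeR adjusted p = 2.28e-18). *Cacna1d* fell by 3.98 on the log2 scale (SE 0.26) and *Cacna1e* by 5.65 (SE 0.48), from 74.4 to 1.28 CPM. *Cacna1c* fell by only 1.5003 (SE 0.19), from 480.5, 375, 432 and 399 CPM to 162, 139.8, 123 and 131 CPM, so that it was the pore subunit with the highest level in OLs, per 100 kb as well. The OPC and OL libraries did not overlap for any of the pore subunits.

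The α2δ genes split. *Cacna2d3* fell by 3.75 on the log2 scale (SE 0.23, edgeR adjusted p = 8.22e-19), from 362, 332, 246 and 275 CPM to 24.6, 18.2, 21.1 and 19.3 CPM. *Cacna2d2* fell by 2.96 (SE 0.40) and *Cacna2d1* by 1.71 (SE 0.20), the smallest fall among them. *Cacna2d4*, in contrast, had 18.8 CPM in OLs and 4.56 CPM in OPCs, as given above.

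The β genes split as well. *Cacnb2* fell by 5.50 (SE 0.34, edgeR adjusted p = 1.49e-18), from 142 to 235 CPM in OPCs to 2.95 to 5.25 CPM in OLs. *Cacnb4* had a log2 fold change of -0.10 (SE 0.24, edgeR adjusted p = 0.783), with 203, 164, 129 and 136 CPM in OPCs and 147, 113, 147 and 144 CPM in OLs. The 2 sets of *Cacnb4* values overlapped, and its sign turned in 3 of 13 alternatives.

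**Figure D2:**
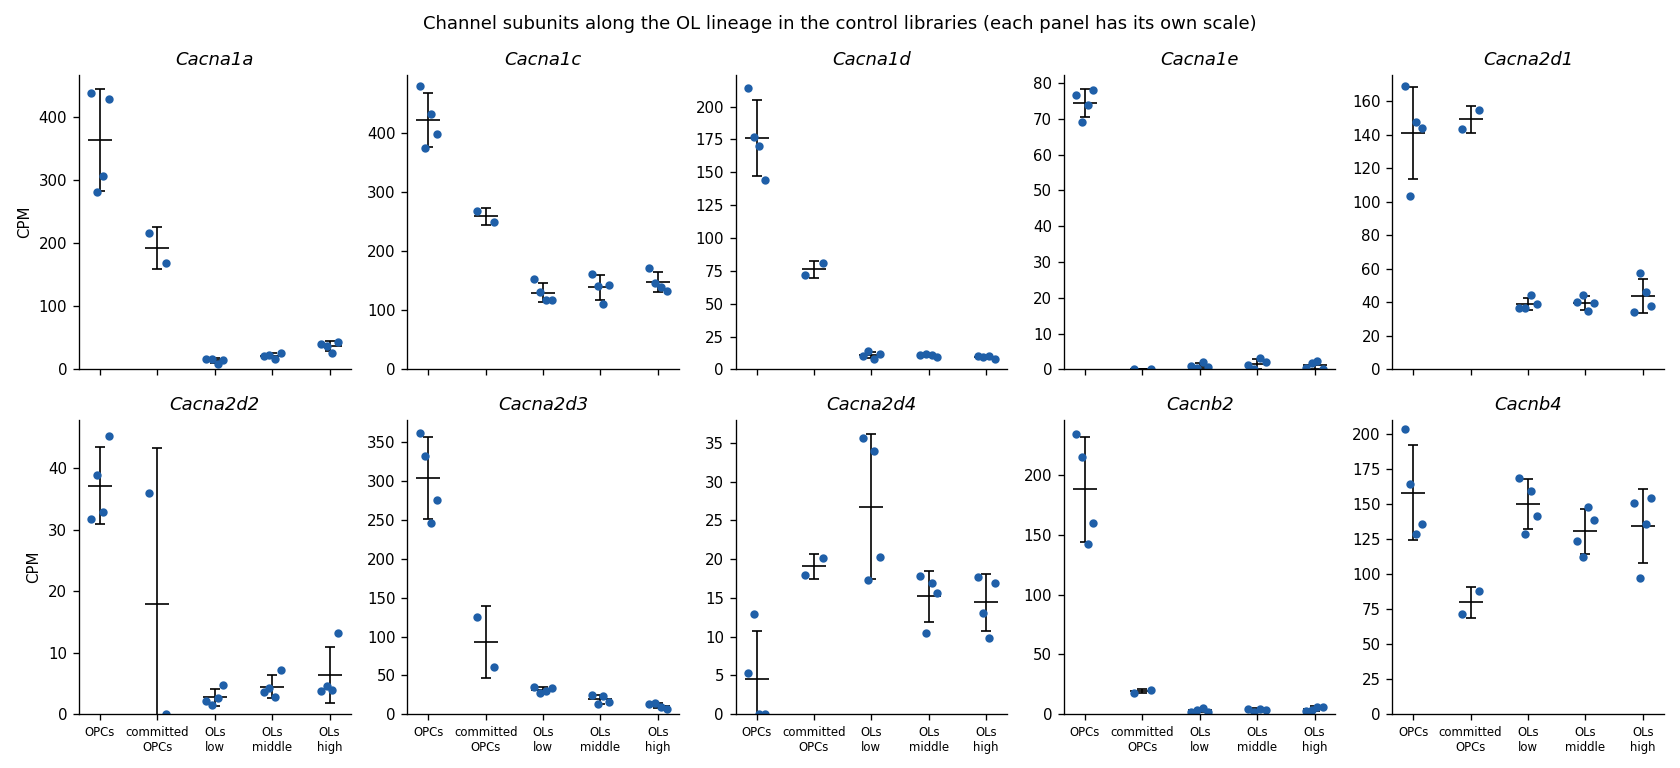
Level of each subunit gene (CPM, linear axis, own scale per panel) in control libraries along the OL lineage, from OPCs over committed OPCs (2 libraries) to OLs cut into low, middle and high maturation score; points are libraries, bars mean and SD. Most genes drop between OPCs and OLs, Cacnb4 and Cacna2d4 do not, and within OLs Cacna1a is 14.3 CPM at low score and 36.4 CPM at high score.

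Committed OPCs, the stage between, were rare: 33 nuclei in the 2 control libraries that could be summed. Their *Cacna1a* (192 CPM ± 33.0), *Cacna1c* (259 ± 13.8), *Cacna1d* (76.3 ± 6.47) and *Cacna2d3* (93.1 ± 45.9) values lay between those of OPCs and OLs. *Cacna2d1* was 149 ± 8.18 CPM from 31 UMIs, within the range of the OPC libraries, but in the libraries labelled cKO it was 61.3 ± 46.8 CPM in committed OPCs against 169 ± 16.6 CPM in OPCs (SD, n = 4 each). Between genotypes in committed OPCs its log2 fold change was -1.28 (SE 0.56, edgeR unadjusted p = 0.0331, adjusted p = 0.994). *Cacnb2* (19.1 ± 1.62 CPM in control, from 4 UMIs) was far below its OPC level. *Cacna1e* had 0 UMIs, which allows up to 14.7 CPM.

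Of the 23 other channel genes, 12 were tested, of which 7 were called lower in OLs than in OPCs and 0 higher in the same fit, with a median log2 fold change of -2.53. The calls with the largest differences were *Cacng4* (-7.73, SE 0.27) and *Cacng8* (-6.11, SE 0.48), which encode γ subunits that also serve as AMPA receptor auxiliary proteins, and the T-type pore genes *Cacna1i* (-3.81, SE 1.23) and *Cacna1g* (-3.63, SE 0.69). *Cacna1i* was low throughout, at 2.42 ± 1.79 CPM in OPCs and 0.08 ± 0.16 CPM in OLs (SD, n = 4 each), and 3 counts over the 4 control OPC sums together came to 2.46 CPM. Of the 16 genes of stores, pumps and exchangers, 13 were tested, of which 7 were lower and 1 higher, with a median of -2.09. They were led by the ryanodine receptor *Ryr2* (-5.94, SE 0.40), the plasma membrane calcium pumps *Atp2b2* (-4.70, SE 0.26) and *Atp2b3* (-4.64, SE 0.68), and the IP3 receptor *Itpr2* (-4.17, SE 0.23). The median over all genes was 0.07 in edgeR and -0.46 in DESeq2, where 25.3% rather than 45.4% of the calls were higher. The part of scaling, test and filter in this was not tested.

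Within OLs, the nuclei of each control library were cut into 3 groups of equal size (low, middle and high score) by a maturation score, the mean of *Trf*, *Apod* and *Klk6* minus the mean of *Mbp*, *Mog* and *Mal*, and the high-score nuclei were set against the low-score nuclei. Whether the score orders OLs by maturity was not tested. Of the 10 genes, 7 passed the filter, and *Cacna1e*, *Cacna2d2* and *Cacnb2* did not. *Cacna1a* was the 1 gene that rose (0.883% of all genes tested were called higher), and *Cacna2d3* was the 1 gene that fell (0.627% called lower). Each change went the same way in 4 of 4 libraries.

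*Cacna1a* had 17.2, 15.7, 9.26 and 14.9 CPM in the low-score nuclei and 40.8, 36.3, 25.2 and 43.2 CPM in the high-score nuclei of replicates 1 to 4. The 2 groups did not overlap, with a log2 fold change of 1.31 (SE 0.22, edgeR adjusted p = 0.00734). The call was lost without replicate 2 (adjusted p = 0.0772), without replicate 4 (adjusted p = 0.0643) and with nuclei thinned to 1000 UMIs (adjusted p = 0.381), while the log2 fold change stayed between 1.04 and 1.51. It was kept with thinning and the library as a block. For every gene, thinning also recomputed the score and cut the groups again, so the nuclei compared were not the same. Among the 14 OL clusters with at least 10 nuclei in a control library (a cluster of 27 nuclei had too few), *Cacna1a* ran from 5.30 to 59.0 CPM, highest in the cluster led by *A530053G22Rik*.

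*Cacna2d3* had 35.2, 27.7, 30.3 and 33.2 CPM in the low-score nuclei and 13.0, 14.2, 9.39 and 6.95 CPM in the high-score nuclei. These groups did not overlap either, with a log2 fold change of -1.53 (SE 0.21, edgeR adjusted p = 0.00164). With nuclei thinned to 1000 UMIs and the groups cut again, it was -0.81 and not called (edgeR adjusted p = 0.692). With thinning and the library as a block the fall was not called either. Over 12 alternatives the log2 fold change was -1.72 to -0.80, and the call was lost in 2. *Cacna2d3* was unevenly spread over the OL clusters: 94.0 CPM in the cluster led by *7630403G23Rik*, *Rasal1* and *Kit*, 67.7 CPM in that led by *Rasal1*, *C030029H02Rik* and *Synpr*, 29.1 CPM in the next and a median of 5.72 CPM.

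*Cacna2d4* had 35.6, 17.3, 33.9 and 20.3 CPM in the low-score nuclei and 17.8, 13.0, 9.89 and 16.98 CPM in the high-score nuclei. Its values were lower in the high-score nuclei of each library, while the 2 groups overlapped. It was not called without the replicate block (log2 fold change -0.95, SE 0.28, edgeR adjusted p = 0.139) but was called with the library as a block (adjusted p = 7.83e-05), a fit that called 444 genes in place of 171. It was also called with no filter on low counts (adjusted p = 0.00246) and in the libraries labelled cKO (-0.94, adjusted p = 0.0159). With nuclei thinned to 1000 UMIs the log2 fold change shrank to -0.34 (edgeR adjusted p = 1.0), and with the block as well it was -0.35 (edgeR adjusted p = 0.776), so the call was not kept. The other 4 tested genes, *Cacna1c*, *Cacna1d*, *Cacna2d1* and *Cacnb4*, had log2 fold changes of -0.24 to 0.17. Of the other channel genes 2 were tested and of the stores, pumps and exchangers 7, and 0 of either were called by edgeR.

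Genotypes were compared per cell type over the 4 control and 4 libraries labelled cKO. In OLs, 9 of the 10 genes passed the filter, and *Cacna2d3* was the only one called, lower in the libraries labelled cKO. Across all genes tested in OLs, 12 of 14414 (0.0833%) were called in either direction. The members were chosen with earlier results of these data known, and the study had reported lower *Cacna2d3* in *Piezo2*-deficient OLs. This call is therefore no independent evidence of the difference. *Cacna1e* was below the filter, with 0.69 to 2.62 CPM in control and 0.81 to 0.87 CPM in libraries labelled cKO.

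*Cacna2d3* encodes an α2δ subunit known from presynaptic channels and pain sensitivity. In OLs it measured 24.6, 18.2, 21.1 and 19.3 CPM in control replicates 1 to 4 and 10.5, 12.0, 9.66 and 9.93 CPM in the libraries labelled cKO, replicates 10 to 13. All 4 control libraries lay above all 4 libraries labelled cKO. The difference was -1.01 on the log2 scale (SE 0.14, edgeR adjusted p = 0.0129), a 2.01-fold lower level, from 83 to 171 UMIs per library in control and 64 to 124 in the libraries labelled cKO. DESeq2 gave -1.02 (adjusted p = 4.65e-06). Without control replicate 3, whose OLs held pituitary transcripts, it was -0.999 (edgeR adjusted p = 0.0436), and without replicate 12 it was no longer called (adjusted p = 0.0777).

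The difference had the same direction within both sets of libraries cut by the sign of the first principal component. This had to be so, since all 4 control libraries lay above all 4 libraries labelled cKO. Control replicate 1 had the largest loading in its set (0.694), against 0.175, 0.235 and 0.16 for replicates 2, 10 and 12. In replicates 1, 2, 10 and 12 the control libraries had 18.2 to 24.6 CPM and those labelled cKO 9.66 to 10.5 CPM, and in replicates 3, 4, 11 and 13 they had 19.3 to 21.1 and 9.93 to 12.0 CPM. With a term for these sets, the log2 fold change was -1.01 (edgeR adjusted p = 0.00496).

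The maturation score moved with the genotype. Its median over OLs was -0.51, -0.58, -0.65 and -0.53 in control and -0.41, -0.25, -0.34 and -0.30 in the libraries labelled cKO, so that no control library reached any library labelled cKO. The genotypes were also compared within each score group. The groups were cut within each library, so low-score OLs of the libraries labelled cKO need not have scores as low as those of control, and the comparison did not hold the score fixed. In low-score OLs, control libraries had 35.2, 27.7, 30.3 and 33.2 CPM and those labelled cKO 13.3, 18.3, 14.7 and 13.5 CPM, a log2 fold change of -1.09 (SE 0.16, edgeR adjusted p = 0.0137). In middle-score OLs the log2 fold change was -1.16 (SE 0.25, edgeR adjusted p = 0.123), and in high-score OLs it was -0.55 (SE 0.26, edgeR adjusted p = 0.576). The difference was thus called in low-score OLs and not in the others, and a difference between the score groups was not tested.

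*Cacna2d3* was also measured by OL cluster. The 2 clusters with the highest control levels were chosen after their values were seen, which by itself favours higher control values within them, so no test is given. They held 19.8%, 16.48%, 11.45% and 18.96% of OLs in control replicates 1 to 4 and 12.87%, 12.95%, 11.48% and 13.29% in replicates 10 to 13. Control replicates 1, 2 and 4 thus lay above every library labelled cKO, and in replicate 3 50.7% of OLs were in the *Avp* cluster. Of the *Cacna2d3* UMIs in OLs, the 2 clusters held 48.8% to 65.1% in control and 40.3% to 47.2% in the libraries labelled cKO. The part of these shares in the difference over all OLs was not tested. Within the 2 clusters *Cacna2d3* measured 84.7, 69.0, 102.7 and 72.9 CPM in control and 39.7, 43.2, 42.3 and 33.8 CPM in the libraries labelled cKO. In all other OLs it measured 11.9, 9.89, 12.0 and 8.12 CPM in control and 6.65, 8.04, 5.72 and 6.53 CPM in those labelled cKO. The genotypes did not overlap in the first portion and were separated by less than 0.1 CPM in the second.

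**Figure D3:**
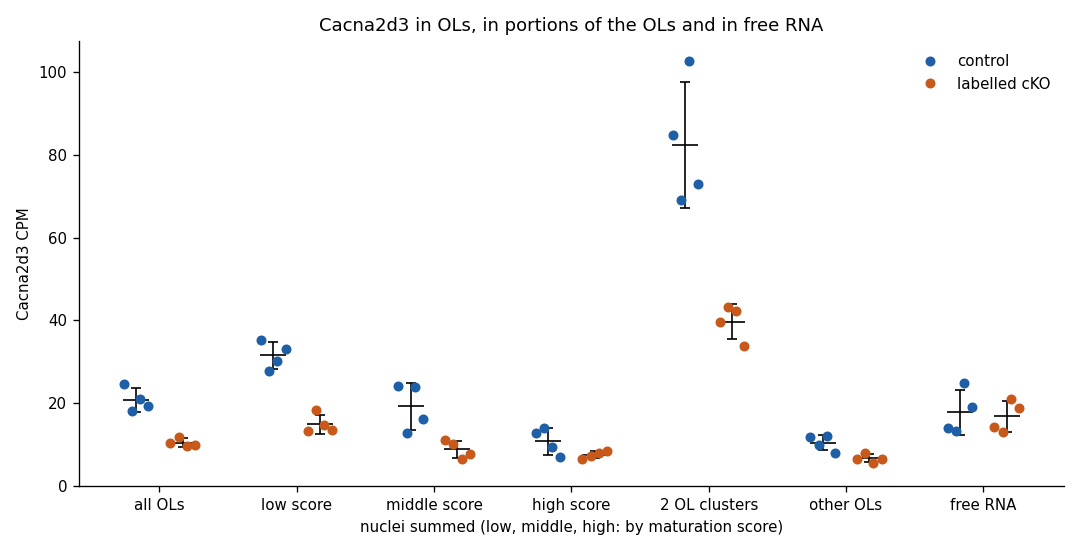
Cacna2d3 level (CPM) in the summed OLs of each library, in OLs of low, middle and high maturation score, in the 2 OL clusters with most Cacna2d3, in all other OLs, and in the free RNA of the same library; points are libraries, bars mean and SD of 4. Control libraries (blue) lie above libraries labelled cKO (orange) in all OLs, low-score and middle-score OLs, the 2 clusters and the other OLs, and the sets overlap in high-score OLs and in free RNA.

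The free RNA of the genotypes overlapped: *Cacna2d3* was 13.3 to 24.8 CPM of it in control and 13.1 to 21.1 CPM in the libraries labelled cKO, and the OL level exceeded it in 3 of 4 control libraries and in 0 of 4 libraries labelled cKO. Summed neuron markers in the OL sums were 72.5 to 107 CPM in control and 55.4 to 117 CPM in the libraries labelled cKO, with none of the 6 markers at 0. Summed OPC markers were 163.3 to 202 CPM in control and 154 to 163.2 CPM in the libraries labelled cKO, with none of the 5 at 0, and red blood cell markers were 1441 to 2840 CPM and 587 to 1462 CPM. Myeloid markers were 75.6 to 83.8 CPM in control and 84.1 to 96.7 CPM in the libraries labelled cKO, with none of the 7 at 0. Retina markers were 1.62 to 5.55 CPM and 4.84 to 12.3 CPM, with up to 2 of the 4 at 0. Pituitary markers, given above, were higher in every control library. The pituitary, OPC and myeloid sums moved with the genotype without overlap, the red blood cell and retina sums with overlapping ranges, and the part of these lists in the difference was not tested.

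As a share of OLs, *Cacna2d3* was seen in few nuclei. Thinned to 1000 UMIs each, 2.19%, 2.07%, 2.01% and 1.38% of OLs in control replicates had a UMI, against 0.97%, 1.10%, 0.91% and 0.78% in the libraries labelled cKO. The groups did not overlap, and the two-sided exact permutation test gave p = 0.0286, the smallest that 4 against 4 libraries allow, but an adjusted p = 0.286 over the 20 comparisons of 10 genes in OLs and OPCs. *Cacna1e* in OPCs gave the same p and adjusted p among these comparisons, with 5.76% ± 0.91 of control OPCs and 7.70% ± 0.71 in the libraries labelled cKO. Unthinned, the shares for *Cacna2d3* in OLs were 4.57% ± 0.34 in control and 2.40% ± 0.36 in the libraries labelled cKO (SD, n = 4 each). Myeloid cells, with little *Cacna2d3*, had a share of 0.90% ± 0.34 in control and 0.58% ± 0.39 in the libraries labelled cKO at 1000 UMIs. The share over all OLs of the libraries labelled cKO was close to these values, and whether they are a background was not tested. In those libraries the 2 OL clusters chosen above still had 33.8 to 43.2 CPM, against 13.1 to 21.1 CPM in free RNA. Median depths were 2324 to 3167 UMIs in the OLs and 1798 to 2257 UMIs in the myeloid cells kept for thinning, which left out 365 control OLs and 395 OLs of the libraries labelled cKO.

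The other genes tested in OLs did not pass the threshold. *Cacna2d2* had a log2 fold change of 0.52 (SE 0.28, edgeR adjusted p = 0.603), with 3.17, 3.47, 3.12 and 8.12 CPM in control and 5.72, 7.04, 5.77 and 6.33 CPM in the libraries labelled cKO, so that 1 control library lay above all others. *Cacna2d4* had -0.29 (SE 0.17, edgeR adjusted p = 0.629), *Cacna1c* -0.24 (SE 0.12, adjusted p = 0.598) and *Cacna1a* -0.21 (SE 0.18, adjusted p = 0.757). *Cacnb4* had 0.16 (SE 0.10, adjusted p = 0.685), *Cacna1d* -0.12 (SE 0.17), *Cacnb2* 0.09 (SE 0.25) and *Cacna2d1* -0.01 (SE 0.14).

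In OPCs 9 genes were tested, 0 were called by edgeR or DESeq2, and 0 had an unadjusted p under 0.05, while 0.19% of all genes were called. *Cacna2d3* had 362, 332, 246 and 275 CPM in control OPCs and 296, 292, 211 and 304 CPM in OPCs of the libraries labelled cKO, with overlapping ranges and a log2 fold change of -0.16 (SE 0.17, edgeR adjusted p = 0.928). In astrocytes it had 176, 116, 163 and 151 CPM and 165, 137, 175 and 160.0 CPM, with a log2 fold change of 0.05 (SE 0.14, edgeR adjusted p = 0.948).

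**Figure D4:**
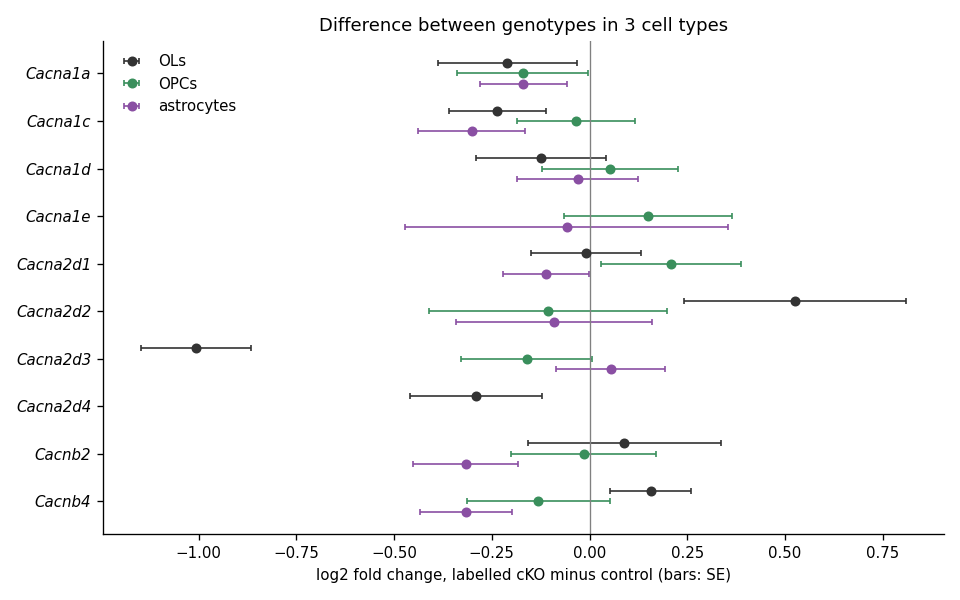
Log2 fold change between genotypes (libraries labelled cKO minus control, 4 libraries each) with its SE for each subunit gene that passed the filter in OLs (black), OPCs (green) and astrocytes (purple). Cacna2d3 is at -1.01 in OLs, -0.16 in OPCs and 0.05 in astrocytes, and it passed the threshold in OLs alone, as no other gene did in any of the 3 types.

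Whether the difference in *Cacna2d3* itself differed between OLs and astrocytes was tested in one fit. The interaction was -1.08 on the log2 scale (SE 0.20, unadjusted p = 3.84e-05, edgeR adjusted p = 0.123) and was not called, where 0.0188% of all genes were. With the library as a replicate block it was -1.06 (SE 0.14, adjusted p = 0.00108) and called, as it was by DESeq2 (-1.09, adjusted p = 0.00758). By edgeR without the block, 0 of the 10 genes were called and 2 had an unadjusted p under 0.05, the second being *Cacnb4* (0.45, SE 0.16, edgeR adjusted p = 1.0).

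Over the 9 types other than OLs, 51 tests of these genes gave 0 calls by edgeR and 0 by DESeq2, with 8 at an unadjusted p under 0.05 and log2 fold changes of -1.34 to 0.48. These 8 were 3 of 9 in astrocytes (1109 of 14387 among all genes) and 2 of 10 in fibroblasts (623 of 13101). The others were 1 of 4 in committed OPCs (98 of 2381), 1 of 2 in mural cells (17 of 360) and 1 of 9 in neurons (351 of 6144). Myeloid cells (336 of 7812 among all genes), OPCs (434 of 6857) and endothelial cells (427 of 3318) had 0. T cells had none of the 10 genes above the filter. The share of all genes called was 0.0% in astrocytes, fibroblasts, myeloid cells, committed OPCs, mural cells and T cells, 0.633% in endothelial cells and 0.0163% in neurons. In astrocytes *Cacnb4* (-0.32, SE 0.12), *Cacnb2* (-0.32, SE 0.13) and *Cacna1c* (-0.30, SE 0.14) had unadjusted p under 0.05 and edgeR adjusted p of 0.588 to 0.644. Of the 23 other channel genes and the 16 genes of stores, pumps and exchangers, 0 were called in OLs by edgeR among 5 and 9 tested.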

How the data were processed

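Nuclei of 8 libraries (6 ONs of 3 mice each) were sequenced by the authors, who aligned reads to GRCm39 and made the deposited UMI counts per gene and barcode with Cell Ranger 7.0.0. The deposited count matrices held all barcodes, with free RNA not removed. Their total of 39628926 to 56541132 UMIs per library limits the precision of low genes, and floors (3 counts) and intervals cover counting error only. Nuclei were called from the counts with an OrdMag threshold (8000 expected nuclei) and a test against empty droplets (false discovery rate 0.01), and those with under 200 genes, over 5% mitochondrial UMIs or outlying depth were removed, as were doublets scored against simulated ones (0.8% per 1000 nuclei). Clusters (scanpy 1.11.5, Leiden, resolution 3) were made without 37 genes and named by markers. The genes left out were the members, the other channel genes, *Piezo1*, *Piezo2*, *Olig1* and *Olig2*. The names were rebuilt here, and differences from the study may come from that. Clusters stayed unnamed that had few markers raised or a low marker score, few UMIs, markers of 2 types with many UMIs, or leading genes of another type or of the pituitary.

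UMIs were summed per library and type (at least 10 nuclei and 1000 counts) and tested with edgeR 4.0.16 (TMM, filterByExpr, quasi-likelihood) over all genes, one fit per type for genotypes and one fit of all types in control libraries for levels. A call needed an adjusted p under 0.05 and a log2 fold change over 0.5. The SE was taken from the fold change and F. DESeq2 1.42.0, no filter, single libraries left out, thinning to 1000 UMIs, subtraction of 10% free RNA, OrdMag nuclei only, resolution 1.6 and a replicate block were alternatives. Sums of 1 library share animals, and same-numbered sums deviated together (correlation 0.273 to 0.732 over genes), so the block pairs them. The test was checked on counts simulated with the same dispersion for all genes and independent libraries, so its power on the real data was not measured. In OLs edgeR recovered 70 of 81 genes changed by 1 on the log2 scale and 88 of 89 changed by 2, among genes past its filter. It made 5 false calls there, and DESeq2 recovered 61 of 99 and 89 of 100. For OPCs edgeR recovered 35 of 54 and 69 of 69, and DESeq2 21 of 100 and 71 of 100.

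All 10 members were named, and at most 4 genes per other list, those called with the largest difference. For the α2δ genes, the 3 genes with the highest correlation over types were named. The members, lists and tests were chosen with earlier results of these data known. Positions are from the GRCm39 annotation, in which 98.5% of gene IDs matched. Protein sequences were not used here.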

Additional observations from a re-analysis of the deposited data

Results flagged for a closer look

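In 6 of 104 groups of 4 libraries with enough UMIs, 1 library lay far from the other 3, where chance alone gives about 1 in 20. *Cacna2d2* in OLs was 8.12 CPM in control replicate 4, against 3.12 to 3.47 CPM in the other control libraries. *Cacnb4* in OLs was 112.9 CPM in control replicate 2, under the other control libraries. *Cacna2d3* in OPCs was 211 CPM in replicate 12 of the libraries labelled cKO, below the others of that group. *Cacna1a* was 989 CPM and *Cacna2d1* 336 CPM in the neurons of control replicate 1, the first above and the second below the other control libraries. *Cacna1a* in committed OPCs was 319.7 CPM in replicate 10 of the libraries labelled cKO, from 22 UMIs. No cause of these values was tested.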

How the results depend on the processing

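The number of members called differed most from that reported in these cases. For genotypes in OLs (1 member) it was 0 without replicate 12, the lowest when single libraries were left out (range 0 to 1), and 0 in OLs of middle and of high maturation score. For OLs against astrocytes (0 members) it was 1 with DESeq2, with no filter and with the replicate block. For high-score against low-score OLs (2 members) it was 1 without replicate 2 or 4 (range 1 to 2 over single libraries), 4 in the libraries labelled cKO, 0 with thinning and 1 with the replicate block and thinning. Smaller changes are not listed here. Among them, *Cacna2d4* was also called between score groups with the replicate block or with no filter. Between cell types, leaving out single libraries gave 47 to 51 calls of members. *Cacnb4* in OLs against OPCs turned from -0.10 to 0.0915 with no filter, 0.0123 without replicate 1 (range -0.28 to 0.0123 over single libraries) and 0.18 in libraries labelled cKO, where *Cacna2d1* in committed OPCs also turned, to -0.15. *Cacna2d3* in OLs was lower in the libraries labelled cKO in all 19 alternatives (log2 fold change -1.16 to -0.55, adjusted p 4.65e-06 to 0.576), past the threshold in 16. The 8 falls from OPCs to OLs were called in all 13 alternatives. Calls lower in OLs were lost for *Cacna1d* in 2, *Cacna2d1* in 4 and *Cacna2d3* in 3 of 13 alternatives, and *Cacna1c* in astrocytes in 2, besides those in fibroblasts and myeloid cells given above. The causes were not tested.

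Counts over all genes moved by more than 1.5 times too. In OLs 12 genes were called between genotypes, against 52 by DESeq2, 43 with no filter, 39 with a term for the library sets and 20 in low-score OLs. In the other types it was 35, against 75 by DESeq2, 393 with no filter, 204 without replicate 1, 15 without replicate 10, 14 without replicate 11, 18 with thinning and 19 with free RNA subtracted. For OLs against astrocytes it was 3, against 7 by DESeq2, 11 with the replicate block and 1 with thinning. Thinning took the calls between types from 27859 to 15804 (16368 with the block) and those along the lineage from 4887 to 2678 (2794 with the block). Between score groups it was 171, against 282 with no filter, 72, 49 and 67 without replicate 2, 3 or 4, 444 with the replicate block, 18 with thinning and 96 with both. Beside the calls of *Cacna2d3* and *Cacna2d4* given above, the block changed that of *Cacna1e* in endothelial cells alone, which it called higher. No paired analysis was possible for the genotypes because their replicate numbers (1 to 4 and 10 to 13) are not shared. Thinning with a block, the library sets, the score groups and leaving out the *Avp* cluster (-1.12, adjusted p = 0.0232 for *Cacna2d3*) were added after seeing the data. The share of OLs with a *Cacna2d3* UMI did not pass an adjusted p of 0.05 at 500 or 1000 UMIs or unthinned. The smallest possible p was 0.0286 and 20 comparisons were adjusted for, so a single gene could not pass. This outcome does not decide whether the shares differ. Depth limits values from few UMIs, such as *Cacna2d4* in OPCs (5 UMIs) and committed OPCs (4 UMIs).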

Other observations

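For each α2δ gene, the genes with the most similar levels were sought by Pearson's r of log2(CPM + 1) over the control means of the 10 named types, among 13600 genes. These are descriptions over 10 points from the same 4 libraries. *Cacna2d1* was most like *Gpc1*, which encodes a glypican (r = 0.96), *Golm2* (0.96) and *Ranbp17* (0.94). *Cacna2d2* was most like *Zfp941* (0.97), *Tro* (0.96) and *A230057D06Rik* (0.96), all highest in neurons. *Cacna2d3* was most like *Ip6k2* (0.94), *Fbxo16* (0.93) and *Pkia* (0.93), and *Pkia*, which encodes an inhibitor of protein kinase A, was highest in OPCs at 133 CPM. *Cacna2d4* was most like *Shroom1* (0.97), *Gm28319* (0.97) and *Gm15813* (0.96), of which the first and second were highest in OLs, at 35.6 and 29.9 CPM.

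In neurons 10 of 12 tested genes among the other channel genes were called higher than in the mean of the other types, where 23.5% of all genes tested were, led by the N-type pore *Cacna1b* (log2 fold change 8.30, SE 0.32). Fibroblasts had *Cacna1g*, a T-type pore, higher by 4.32 (SE 0.44), and in endothelial cells the IP3 receptor *Itpr3* was higher by 3.22 (SE 0.51). In committed OPCs *Itpr2* was higher by 3.63 (SE 0.19) and *Cacng4* by 3.05 (SE 0.65).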
